A study of Homo sapiens with 5 samples.

Results

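The SNHG genes, small nucleolar RNA (snoRNA) host genes, are long noncoding RNA genes named for the snoRNAs that most of them carry in their introns. Their members here were taken by symbol: every gene whose symbol begins with SNHG among the 2694 genes listed in the deposited RNA sequencing values. There were 10 of them, SNHG1, SNHG3, SNHG4, SNHG8, SNHG12, SNHG15, SNHG16, SNHG19, SNHG21 and SNHG25, of the 29 numbered SNHG symbols in the RefSeq gene table. The 10 were singled out with their difference between the media already known, and the list itself appears to hold the genes that the authors called on the same libraries. The differences of the SNHG genes are therefore given as a description, with no test.

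The cells were TC28a2, a human chondrocyte line labelled as derived from costal cartilage and as normal, and the libraries all come from this 1 line. In growth medium (GM, n = 2) the cells were kept in high-glucose DMEM with 10% fetal bovine serum. In hypertrophic medium (HM, n = 3), which was renewed every 2 days, serum was lowered to 1% in the same DMEM. The additions were 2 growth factors (GDF-5 at 10 ng/ml, BMP-2 at 100 ng/ml), 2 hormones (10 nM dexamethasone, and T3 of the thyroid at 1 µM), 10 mM β-glycerophosphate, 50 µg/ml ascorbic acid and a 1% supplement of insulin, transferrin and selenium. Both media held 1% of an antibiotic and antimycotic solution, and total RNA was taken on day 5. The lower serum and the added factors changed together between the media and cannot be told apart. Of 16 chondrocyte markers, 5 are listed, among them SOX9, COL2A1 and ACAN, and of 8 markers of hypertrophic chondrocytes, 2 are listed, MMP13 and PTH1R. All 7 were higher in hypertrophic medium, beside 62.5% of all listed genes that limma called higher and 99.0% that it called in either direction. SOX9 and MMP13 were not past the limma threshold when each library was centred on its median (adjusted p = 0.052 and 0.116), nor was SOX9 under quantile normalization (adjusted p = 0.059). Both scalings use the listed genes alone, most of which were higher, so they cannot tell a shift in scale from the make-up of the list.

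An intron of a host gene is cut out during splicing and trimmed to a snoRNA, while the spliced exons of an SNHG gene code for no known conserved protein and, for several of them, are degraded by nonsense-mediated decay during translation. Box C/D snoRNAs guide ribose methylation of ribosomal RNA and box H/ACA snoRNAs guide its pseudouridylation, each in a particle with 4 core proteins. Some noncoding host genes, SNHG1 and GAS5 among them, begin at a run of pyrimidines like that of the mRNAs of ribosomal proteins, the terminal oligopyrimidine tract, which ties their use to cell growth.

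Because such a tract is defined by the first bases of the transcript, the sequence around the RefSeq start of the SNHG genes is shown for the 8 that have an entry in the RefSeq promoter table of GRCh38.p14; SNHG15 and SNHG25 have none. Each window runs from 15 bases before to 20 bases after the start, 5′ to 3′ on the gene's own strand. Capitals mark the longest run of C and T found between 10 bases before and 15 bases after the start. Positions are on GRCh37, the build of hg19, where each promoter had a single exact match.
SNHG1 start, chr11:62623338-62623372, minus strand: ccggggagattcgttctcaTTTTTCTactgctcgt
SNHG16 start, chr17:74553831-74553865, plus strand: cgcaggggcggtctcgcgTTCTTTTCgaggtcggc
SNHG19 start, chr16:2205340-2205374, minus strand: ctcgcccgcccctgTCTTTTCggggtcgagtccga
SNHG12 start, chr1:28908366-28908400, minus strand: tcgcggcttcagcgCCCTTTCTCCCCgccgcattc
SNHG4 start, chr5:138609775-138609809, plus strand: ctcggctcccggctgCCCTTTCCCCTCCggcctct
SNHG3 start, chr1:28832440-28832474, plus strand: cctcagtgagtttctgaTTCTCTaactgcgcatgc
SNHG8 start, chr4:119199902-119199936, plus strand: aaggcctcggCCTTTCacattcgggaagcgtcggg
SNHG21 start, chr15:83419301-83419335, plus strand: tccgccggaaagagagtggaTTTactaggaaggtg
The longest run was 13 bases in SNHG4 and 12 in SNHG12, 8 in SNHG16, 7 in SNHG1 and SNHG19, 6 in SNHG3 and SNHG8, and 3 in SNHG21. Over the 34796 distinct promoters of the table the median run was 4 bases, and 26.3% held a run of at least 6, against 7 of the 8 SNHG genes. For at least 7 bases the shares were 16.7% and 5 of the 8. Not all of these runs are the first bases of the transcript. Those of SNHG3, SNHG16 and SNHG1 begin 2, 3 and 4 bases past the start, and that of SNHG8 lies mostly before it. A run of at least 12 bases stood in 2.18% of all promoters and in 2 of the 8, SNHG4 and SNHG12. The RefSeq start of SNHG12 lies 1259 bases inside the GENCODE span of the gene, while that of each of the other 7 lies within 68 bases of the GENCODE start. These runs are a match of letters near an annotated start and do not show where transcription began in these cells.

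In the same promoters, from 250 bases before to 50 after the start, 5 short motifs were searched on both strands. CACGTG was in none of the 8 and in 7.20% of all promoters. TATAAA was in 2 of the 8, SNHG1 and SNHG19, and in 11.6% of all. CACTTCCG, whose opposite strand can overlap CCGGAAG, was in 1 of the 8, SNHG19, and in 4.0% of all. CCGGAAG (10.2% of all) and TGACGTCA (1.84% of all) were in none of the 8, which says only that these letters are not in these windows.

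The snoRNAs are the products that gave the genes their name, and 4 of those listed in the deposited values have a sequence in the GRCh37 annotation (GENCODE 44). They lie on the same strand as their host and in an intron of its canonical transcript. Capitals mark the C box TGATGA and the D box CTGA of the box C/D class, and the ACA that ends the H/ACA class, where these letters were found.
SNORD60, in SNHG19, chr16:2205024-2205106, minus strand: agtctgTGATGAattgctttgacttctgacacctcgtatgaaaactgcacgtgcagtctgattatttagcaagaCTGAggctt
SNORD1B, in SNHG16, chr17:74557191-74557274, plus strand: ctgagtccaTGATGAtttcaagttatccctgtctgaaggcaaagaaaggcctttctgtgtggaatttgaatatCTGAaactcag
SNORD99, in SNHG12, chr1:28905261-28905334, minus strand: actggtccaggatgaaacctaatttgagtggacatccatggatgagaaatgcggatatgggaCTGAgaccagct
SNORA73B, in SNHG3, chr1:28835071-28835274, plus strand: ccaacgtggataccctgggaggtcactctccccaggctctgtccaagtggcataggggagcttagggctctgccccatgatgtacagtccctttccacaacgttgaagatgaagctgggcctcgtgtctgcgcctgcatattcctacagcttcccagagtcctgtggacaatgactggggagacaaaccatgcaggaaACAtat
SNORD60 and SNORD1B hold both boxes, with the D box 5 and 7 bases from the 3′ end. In SNORD99 the CTGA was found 8 bases from the end, and TGATGA was not found. SNORA73B, also called U17, is an H/ACA snoRNA that acts in cleavage of the ribosomal RNA precursor, and its ACA lies 3 bases from the end. SNORD60 is intronic in 1 of the 2 annotated transcripts of SNHG19 and falls in an exon of the other.

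All 10 SNHG genes had lower deposited log2 values in hypertrophic than in growth medium. Of all 2694 listed genes, 36.6% had a lower mean in hypertrophic medium. The differences were alike in size: the median was -0.69 on the log2 scale, from -0.84 for SNHG8 to -0.61 for SNHG16, with standard errors of 0.11 to 0.18 from the limma fit. In each of the 10, every hypertrophic library was below both growth medium libraries. Groups that did not overlap, in either direction, were found for 99.0% of the listed genes, and 36.5% did not overlap with lower values, so the count of 10 describes the list as much as the SNHG genes and nothing is read from it. The rule for the SNHG genes used this contrast. In RNA from whole cultures, fewer cells of a type and less RNA per cell cannot be told apart.

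**Figure D1:**
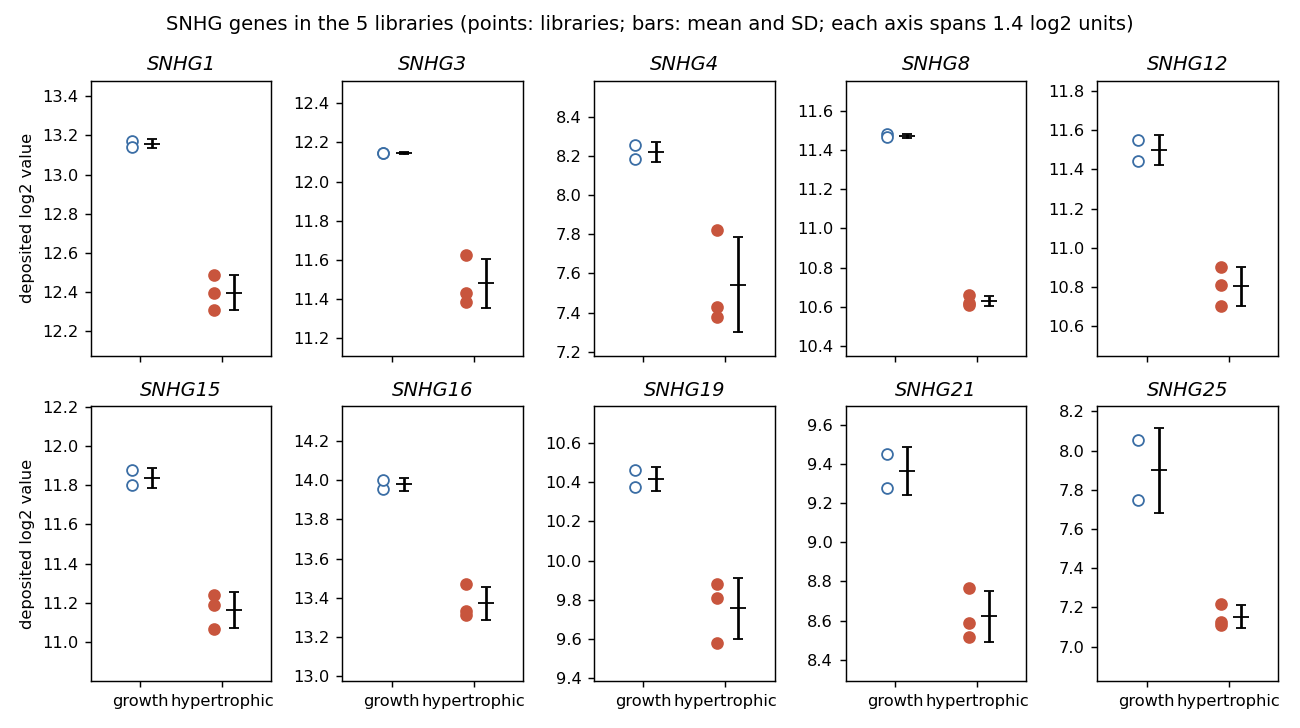
Deposited log2 values (y axis) of the 10 SNHG genes in growth medium (open points, 2 libraries) and hypertrophic medium (filled points, 3 libraries), with the mean and SD beside the points. Every panel spans the same number of log2 units, and in each gene the hypertrophic libraries lie below the growth medium libraries, by a gap of 0.36 (SNHG4) to 0.81 (SNHG8).

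Among the hosts of box C/D snoRNAs, SNHG1 is the host of a cluster of box C/D snoRNAs, SNORD22 among them, and spans chr11:62619450-62623425 on the minus strand with 11 exons in its canonical transcript and 80 annotated transcripts. SNHG1 had log2 values of 13.17 and 13.14 in growth medium and 12.39, 12.49 and 12.31 in hypertrophic medium. The libraries of each medium lay close together, and the means were 13.16 ± 0.023 (SD, n = 2) and 12.40 ± 0.089 (SD, n = 3), a difference of -0.76 (SE 0.11).

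SNHG16, which carries the SNORD1 family, had the highest log2 values of the 10, although levels of different genes are not per length and are not compared further. Its values were 13.96 and 14.00 in growth medium and 13.33, 13.31 and 13.47 in hypertrophic medium, where replicate 3 was the highest. The difference was -0.61 (SE 0.11), the smallest of the 10. The gene is annotated over chr17:74553809-74667067 on the plus strand, 113259 bases, while its canonical transcript has 4 exons and 498 spliced bases.

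SNHG19, which carries SNORD60, is a compact gene of 614 bases at chr16:2204793-2205406 on the minus strand. Its log2 values were 10.37 and 10.46 in growth medium and 9.88, 9.81 and 9.58 in hypertrophic medium. Hypertrophic replicate 3 was the lowest, and the difference was -0.66 (SE 0.14). SNHG25, the host of SNORD104, is annotated over 540 bases at chr17:62223297-62223836 on the plus strand. It had the widest spread in growth medium, 7.75 and 8.05, against 7.13, 7.22 and 7.11 in hypertrophic medium. The difference was -0.75 (SE 0.16), and it was -0.90 without growth medium replicate 1 and -0.59 without growth medium replicate 2, so the size rests on which of the 2 is kept.

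Among the hosts of box H/ACA snoRNAs, SNHG8 showed the largest difference and, in hypertrophic medium, the least spread. Its log2 values were 11.48 and 11.47 in growth medium and 10.62, 10.61 and 10.66 in hypertrophic medium, so that the means were 11.47 ± 0.010 (SD, n = 2) and 10.63 ± 0.027 (SD, n = 3). The difference was -0.84 (SE 0.11), and the nearest libraries of the media were 0.81 apart. SNHG8, the host of SNORA24, lies at chr4:119199858-119206471 on the plus strand.

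SNHG3, the host of SNORA73A and SNORA73B, lies at chr1:28832492-28837404 on the plus strand and overlaps RCC1, a protein-coding gene of the same strand that is not listed. Its log2 values were 12.14 and 12.15 in growth medium and 11.43, 11.62 and 11.38 in hypertrophic medium. The difference was -0.67 (SE 0.12). SNHG4, the host of SNORA74 genes, overlaps MATR3 on the same strand at chr5:138609791-138620588. Its values were 8.18 and 8.26 against 7.43, 7.82 and 7.38, with hypertrophic replicate 2 nearest to growth medium. SNHG4 had the largest standard error of the 10, with a difference of -0.68 (SE 0.18) that was -0.82 without that library.

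SNHG15, the host of SNORA9 and known for a short-lived transcript, lies at chr7:45022618-45026560 on the minus strand. Its log2 values were 11.80 and 11.87 in growth medium and 11.24, 11.06 and 11.19 in hypertrophic medium. Here hypertrophic replicate 2 was the lowest of the 3, and the difference was -0.67 (SE 0.12).

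SNHG12 carries both classes, SNORD99 with SNORA16A, SNORA44 and SNORA61, at chr1:28905050-28909644 on the minus strand. Its log2 values were 11.55 and 11.44 in growth medium and 10.81, 10.90 and 10.70 in hypertrophic medium, a difference of -0.69 (SE 0.12). SNHG21 carries SCARNA15, a guide RNA of the Cajal body class, which acts on spliceosomal RNA. Its values were 9.28 and 9.45 in growth medium and 8.52, 8.77 and 8.59 in hypertrophic medium, a difference of -0.74 (SE 0.15). SNHG21 lies at chr15:83419316-83425958 on the plus strand, opposite FSD2, which is not listed.

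Ordered by the size of the difference, the genes ran SNHG8, SNHG1, SNHG25, SNHG21, SNHG12, SNHG4, SNHG15, SNHG3, SNHG19 and SNHG16. The step from one gene to the next was at most 0.085, below every standard error, so no neighbours in this order stood apart. SNHG8 and SNHG16, at the ends of the order, were 0.24 apart, each with a standard error of 0.11. The SD was larger in hypertrophic than in growth medium in 9 of the 10, SNHG25 being the exception, and with 2 and 3 libraries these SDs are themselves imprecise.

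In 6 of the 10 the highest hypertrophic library was replicate 2, in 2 it was replicate 1 (SNHG15 and SNHG19) and in 2 replicate 3 (SNHG8 and SNHG16). Over all listed genes that were lower in hypertrophic medium, replicate 2 was the highest of the 3 in 42.1%, replicate 3 in 35.6% and replicate 1 in 22.3%. Without replicate 2 the median of the SNHG genes was -0.76.

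The size of the differences has to be read against the list. Over all 2694 genes the median difference was 0.56, and over the genes with a lower mean it was -0.69, which to 2 decimals is the median of the SNHG genes. Of 217 listed long noncoding RNA genes, 120 had a lower mean, with a median of -0.66 over those 120. The smallest difference in the list, of either sign, grew with the level. With the genes in 4 bins of near equal number by mean value, it was 0.21 in the lowest bin and 0.55 in the highest. The highest bin holds 6 of the SNHG genes, each middle bin holds 2 and the lowest holds 0. Each SNHG gene was set beside the 100 lower genes nearest to it in mean value. For SNHG16 only 6 of the 100 had a smaller fall, and the smallest was -0.59, so SNHG16 lay just inside the edge of the list. For SNHG8, 61 of 100 had a smaller fall, and for the other 8 genes 25 to 52 of 100. In all, 293 lower genes fell by more than SNHG8 did.

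**Figure D2:**
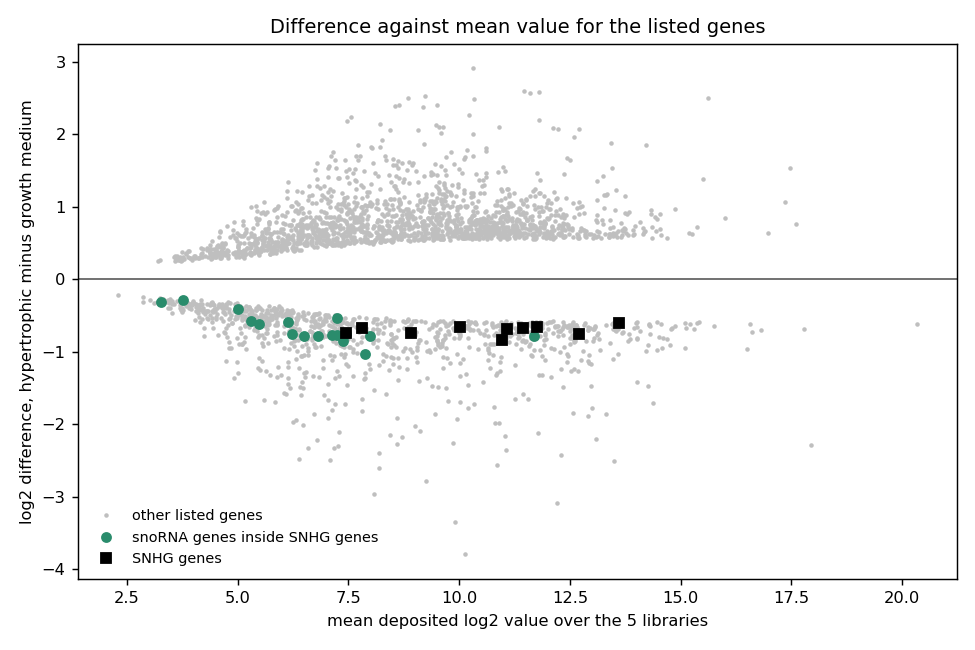
Difference between the media in log2 units (y axis, hypertrophic minus growth medium) against the mean deposited log2 value over the 5 libraries (x axis) for the 2694 listed genes, with the 10 SNHG genes as squares and the 17 listed snoRNA genes inside them as circles. The empty band around 0 widens with the level, and the SNHG genes lie from -0.84 to -0.61 within the lower cloud, with SNHG16 near its edge.

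The snoRNA genes inside the SNHG genes that are listed were lower in hypertrophic medium, as were all other listed snoRNA genes. RefSeq places 25 small RNA genes inside the 10 SNHG genes. Of these, 17 are listed, from 8 hosts, and all 17 were lower and past the threshold (limma, Benjamini-Hochberg adjusted p over all listed genes of at most 0.0107). The same threshold was passed by 99.0% of all listed genes, 36.5% of them as lower and 62.5% of them as higher. Since the list was probably drawn from these same libraries, this p only sets each difference against the spread of the replicates. The median of the 17 was -0.76, from -1.03 for SNORA24 to -0.29 for SNORD1A. The other 100 listed snoRNA genes had a median of -0.60, and all 117 listed snoRNA genes were lower. Intronic reads of unspliced host RNA and reads of the snoRNA itself cannot be told apart in these values, and whether counting used the strand is not stated.

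SNORA24, an H/ACA guide in SNHG8, fell the most of the 17. Its log2 values were 8.61 and 8.36 in growth medium and 7.34, 7.55 and 7.48 in hypertrophic medium, a difference of -1.03 (SE 0.16, limma adjusted p = 0.000551). The difference of SNORA24 minus that of its host was -0.19, with a standard error of 0.19 when the 2 are taken as independent. The host with the largest difference held the snoRNA with the largest difference, within these errors. The order did not carry over further, since the next largest, SNORA16A at -0.86, lies in SNHG12, whose own difference was -0.69.

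SNHG1 holds the largest group, 9 small RNA genes of which 6 are listed. SNORD28, SNORD22, SNORD27, SNORD31 and SNORD29 had differences of -0.79 to -0.76, beside -0.76 for their host. SNORD22, or U22, which acts in maturation of the small subunit's ribosomal RNA, had log2 values of 8.52 and 8.39 in growth medium and 7.79, 7.73 and 7.49 in hypertrophic medium (limma adjusted p = 0.00176). SNORD26 had the smallest difference of the 6, -0.53 (SE 0.16).

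SNORA73B, whose sequence is given above, had log2 values of 12.27 and 12.05 in growth medium and 11.26, 11.61 and 11.27 in hypertrophic medium. The difference was -0.78 (SE 0.14, limma adjusted p = 0.00115), beside -0.67 for SNHG3. SNORA73B lies in the span of RCC1 as well, and SNORA74D in that of MATR3 as well as SNHG4. SNORD60, in the short gene SNHG19, had 7.26 and 7.29 against 6.56, 6.65 and 6.25, a difference of -0.79 (SE 0.17, limma adjusted p = 0.00203). SNORA9, in SNHG15, had a difference of -0.76 (SE 0.17).

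The exceptions in size were the low ones. In SNHG16, SNORD1C had a difference of -0.62 (SE 0.14), like its host, while SNORD1B and SNORD1A had -0.31 (SE 0.076) and -0.29 (SE 0.085). SNORD1B and SNORD1A have log2 values of 3.07 to 4.03, the lowest of the 17, in the range where the smallest differences of the whole list were also found. They were the only 2 of the 17 that differed from their host by over 2 standard errors, with snoRNA and host again taken as independent. In SNHG12, SNORA16A had -0.86 (SE 0.15), SNORD99 -0.57 (SE 0.12) and SNORA44 -0.41 (SE 0.12), on both sides of the host's -0.69.

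Of the 17, 10 fell by more than their host, and 13 lay within 1 standard error of it, with snoRNA and host taken as independent. Both were measured in the same libraries, so the counts by standard error are approximate. Hypertrophic replicate 2 was the highest of the 3 hypertrophic libraries in 15 of the 17 and in 86 of the other 100 listed snoRNA genes, so this library stood apart for snoRNAs in general. Without it, the median of the 17 was -0.81 and all 17 were still past the limma threshold. Without growth medium replicate 1, 14 were, the others being SNORA44, SNORD1A and SNORD26, and under quantile normalization 16 were, the other being SNORD1B.

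**Figure D3:**
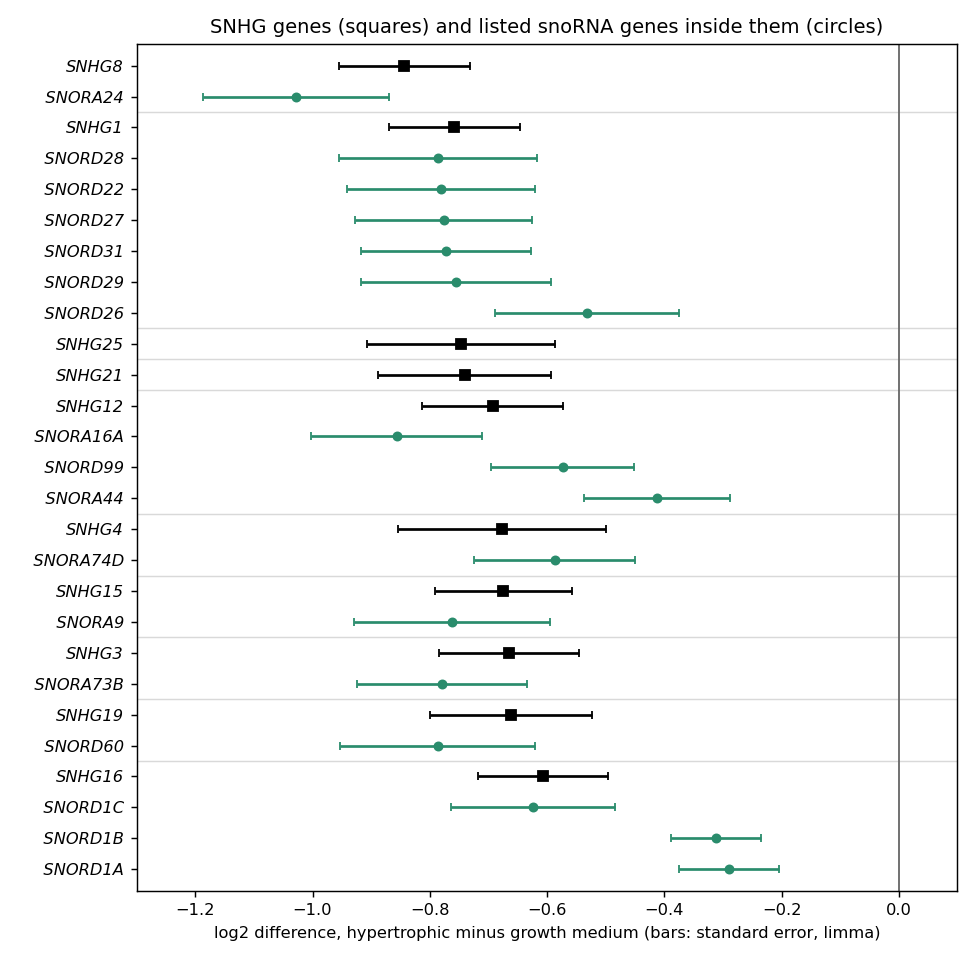
Log2 difference between the media (x axis, hypertrophic minus growth medium) of each SNHG gene (squares) and of the listed snoRNA genes inside it (circles), with bars for the standard error of the limma fit. Hosts are ordered by their difference, and all 27 values lie below 0; SNORD1A and SNORD1B lie nearest to 0 and SNORA24 farthest from it.

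The other noncoding hosts were counted from a fixed list of 10 genes without an SNHG symbol, of which 5 are listed, with 4 lower and 1 higher, where 36.5% of all listed genes were called lower and 62.5% higher. GAS5, a host of box C/D snoRNAs known for its rise in growth-arrested cells, had log2 values of 12.98 and 13.01 in growth medium and 12.28, 12.09 and 12.18 in hypertrophic medium, a difference of -0.81 (SE 0.11, limma adjusted p = 0.000333). RefSeq places 11 snoRNA genes in GAS5, and all 11 are listed and lower, with a median of -0.67. DANCR had a difference of -0.78 (limma adjusted p = 0.000447), with -0.80 for SNORA26 inside it. EPB41L4A-AS1 had -0.60 (limma adjusted p = 0.00184), with -0.44 for its SNORA13. MIR17HG, the host of a microRNA cluster, had -1.09 (limma adjusted p = 0.0011). TUG1 was the 1 that rose, by 0.62 (limma adjusted p = 0.00115), and its adjusted p was 0.053 with median centring. The list also holds genes in which RefSeq places no snoRNA, TUG1 and MIR17HG among them.

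None of the 4 box C/D core proteins and none of the 4 H/ACA core proteins is listed, and no value for them is analysed here. Of 12 factors of snoRNP assembly 1 is listed, AATF, which acts in early ribosome assembly, with a difference of -0.65 (SE 0.12, limma adjusted p = 0.00103).

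The mRNAs with a terminal oligopyrimidine tract were mostly not listed. Of 79 cytosolic ribosomal protein genes 1 is listed, RPS7, at -0.60 (limma adjusted p = 0.00261), and of 15 other mRNAs of this kind 1 is, NPM1, at -0.73 (limma adjusted p = 0.00123). Of 16 genes of RNA polymerase I and ribosome biogenesis, 5 are listed and all 5 fell, with a median of -0.69, which to 2 decimals is that of all listed genes with a lower mean; 36.5% of all listed genes were called lower. They were NPM1, a nucleolar chaperone, BOP1 at -0.71 and WDR43 at -0.69, both of ribosomal RNA processing, TAF1D at -0.68, whose own introns also hold snoRNAs, and POLR1E at -0.65, a polymerase I subunit. Of 9 genes of MYC and its partners 1 is listed, MNT, which competes with MYC for its partner MAX. MNT was higher by 0.58 (limma adjusted p = 0.0115), but not past the threshold with median centring, with quantile normalization or without growth medium replicate 2 (adjusted p of 0.205, 0.289 and 0.087).

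Of 17 proliferation genes, 2 are listed and moved in opposite directions. CCND1, the cyclin that growth factors induce in the first phase of the cell cycle, fell by 2.13 (limma adjusted p = 4.33e-06), and MKI67, made by dividing cells, rose by 0.70 (limma adjusted p = 0.00199), with an adjusted p of 0.086 after median centring. None of 6 abundant structured RNAs is listed. Of the markers of other mesenchymal cells, 3 of 6 for fibroblast-like cells were listed and higher, COL1A1, COL3A1 and LUM, with 1 of 5 for osteoblasts, PHEX, and 0 of 4 for adipocytes, where 62.5% of all listed genes were called higher. COL1A1 was not past the threshold with median centring or without growth medium replicate 2 (adjusted p of 0.289 and 0.095), and PHEX had an adjusted p of 0.0501 with median centring. The part of these genes in the SNHG differences was not tested.

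Genes that overlap an SNHG gene or lie next to it were mostly not listed: 24 are named in the annotations and 3 of them are in the deposited values. PRSS12, which codes for a serine protease, overlaps SNHG8 on the opposite strand in GENCODE. It had log2 values of 7.92 and 8.10 in growth medium and 6.78, 6.70 and 6.46 in hypertrophic medium, a difference of -1.36 (SE 0.16, limma adjusted p = 0.000174). Both genes of this pair were lower, and without knowledge of the strand used in counting, reads from the overlap cannot be assigned to one of them. PHACTR4, next to SNHG3, was higher by 0.69 (limma adjusted p = 0.00173), with an adjusted p of 0.072 under quantile normalization. RAB42, next to SNHG12, was higher by 0.52 (limma adjusted p = 0.0124), and was not past the threshold with median centring, with quantile normalization or without either growth medium library (adjusted p of 0.301, 0.213, 0.068 and 0.078).

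To see which genes had a profile most like that of the SNHG genes, each gene's 5 values were centred on their mean and the distance to the mean profile of the 10 was taken. The nearest 5 were PPP1R14B-AS1 at a distance of 0.029 log2 units, CHST4 at 0.078, SNORD68 at 0.083, PVT1 at 0.085 and DUSP1 at 0.088. PPP1R14B-AS1, an antisense noncoding RNA gene, had log2 values of 5.75 and 5.81 against 5.07, 5.17 and 5.00. The SNHG genes themselves lay between 0.095 for SNHG1 and 0.26 for SNHG4, although they make up the profile, and 99 other listed genes were nearer than the median SNHG gene. The median distance over all listed genes was 1.43. A profile this near was therefore not particular to the SNHG genes, and it rests on 5 libraries.

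How far each SNHG difference depends on the scaling was also followed. Centring each library on the median of the listed genes shifts every difference by -0.35, since the hypertrophic libraries had median listed values of 8.43 to 8.62 and those of growth medium 8.17 and 8.18. After it the SNHG genes ran from -1.19 to -0.95. Quantile normalization gave -1.18 to -0.61, and leaving out 1 library at a time gave -0.90 to -0.57. Both scalings rest on the listed genes alone, of which 62.5% were called higher and 36.5% lower. They cannot separate a shift in scale from that imbalance, so the deeper falls after them are not a separate result. Only quantile normalization could have changed a sign, since the groups do not overlap and centring lowers all differences alike.

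**Figure D4:**
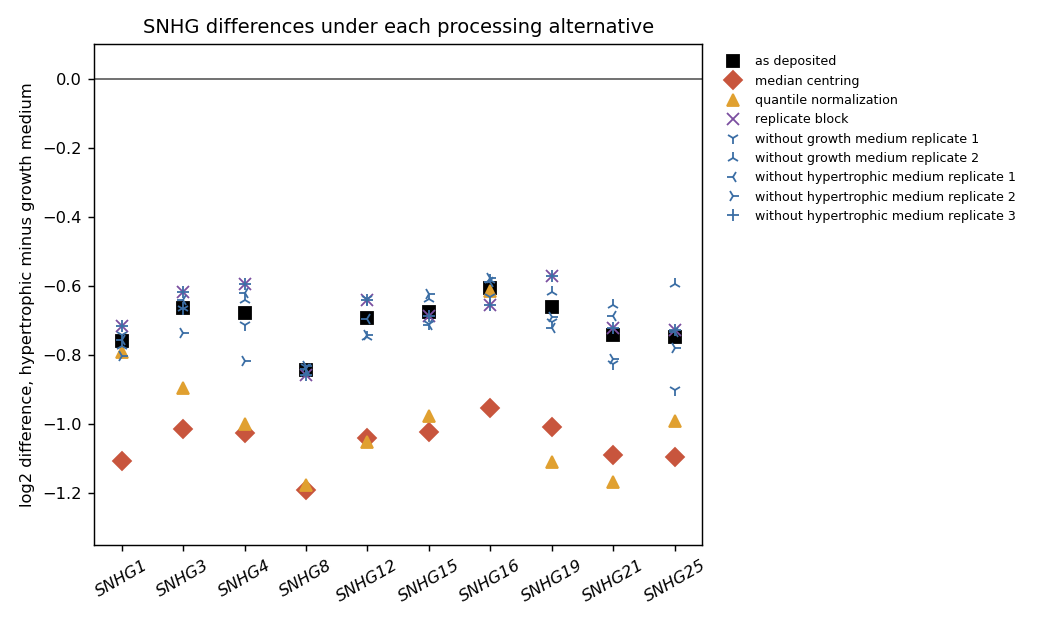
Log2 difference between the media (y axis, hypertrophic minus growth medium) of each SNHG gene (x axis) with the values as deposited (squares), after median centring or quantile normalization, with the replicate block (the same values as without hypertrophic replicate 3) and without each library in turn. Centring moves every gene to between -1.19 and -0.95, and no point is above 0.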

How the data were processed

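Total RNA was extracted with Trizol and sequenced from stranded total RNA libraries. According to the paper's methods, the authors used HISAT2 to align reads to hg19 and StringTie to count known NCBI genes, left out genes with a zero count, and then took logarithms and normalized by RLE (each library scaled by its median ratio to a shared reference). Their deposited files hold 1 log2 value per gene and library, taken here to be those values although no source says so. The submitters' processing notes instead name bcl2fastq 2.20.0.422, cutadapt 1.18, TopHat2 2.0.13, Cuffdiff 2.2.1 and the rat build rn5. The values carry human symbols, as an annotation of hg19 would give, while the aligner and the counting program could not be settled from them. The log2 transformation is not named further, so differences were not turned into folds. Listed differences go down to 0.21 in size, below the log2 fold change that the paper gives as its threshold, so a log2 difference here may not be on the scale of the paper's fold changes. Strand use in counting is not stated, and the depth of the libraries is unknown, so no counting error was given.

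The comparison of the media used limma 3.58.1 under R 4.3.3 (lmFit, eBayes with trend) on the deposited log2 values, with no block and with Benjamini-Hochberg adjustment over all 2694 genes at 0.05. The fit was tested on simulated data in which most genes were unchanged, unlike the list, so that test does not bear on the calls made here. The study describes its replicates as biological, while the labels name no separate cultures. P-values measure only the spread between these samples.

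The SNHG genes and all gene lists were chosen with earlier results of these data known. Named were all listed SNHG genes, the listed snoRNA genes inside them, listed overlapping or adjacent genes, the 5 nearest profiles and up to 4 listed members of each fixed list. EPB41L4A-AS1, POLR1E and SOX9 were named beyond that limit, after their values were seen. Some genes that the rule covers are left out of the text. Genes inside hosts were taken from RefSeq spans on GRCh38.p14, whose table gives no strand for small RNAs; the strand was checked for 4 of them in GENCODE 44 on GRCh37. Coordinates are from GENCODE 44 on GRCh37, and sequences from RefSeq or that annotation. The alternatives were median centring, quantile normalization, the replicate block, each library left out, eBayes without trend and a second threshold. Python 3.11.15, pandas 2.3.3 and matplotlib 3.10.9 were used.

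Replicate numbers were not used as pairs, since the labels do not say that equal numbers mark a shared culture or day.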

Additional observations from a re-analysis of the deposited data

How the results depend on the processing

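The direction of the 10 SNHG genes could change only under quantile normalization, since their libraries do not overlap between the media and median centring lowers every difference alike, and under quantile normalization all 10 were below 0. The median of the SNHG genes was -1.03 with median centring and -0.99 with quantile normalization, against -0.69 as deposited, and -0.76 to -0.65 with 1 library left out, the first without hypertrophic replicate 2. The median of the 17 snoRNAs was -1.11 with median centring, against -0.76, and -0.81 to -0.67 with 1 library left out. Over the listed genes, limma called 1683 higher and 984 lower. Median centring gave 845 higher, and a difference of at least 1 with an unadjusted p under 0.05 gave 318 higher and 190 lower. With 1 library left out there were 1372 to 1661 higher and 854 to 961 lower. The share of calls that were higher was 63.1% as deposited, 46.1% with median centring and 56.6% with quantile normalization. Since both scalings use only the listed genes, they cannot separate a shift in scale from the list's excess of higher genes. With the replicate number as a block, hypertrophic replicate 3 has no partner, so the differences equal those without that library: the median of the SNHG genes was -0.67, and 1685 genes were called higher and 980 lower. Samples with equal numbers share only the number: their deviations correlated by 0.061 for replicate 1 and -0.13 for replicate 2. With depth unknown, precision rests on 2 and 3 libraries, and an alternative with 1 growth medium library assumes that it varies like the hypertrophic ones.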

Other observations

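Several SNHG genes that are not among the listed genes hold snoRNAs that are. SNHG17 is not listed, and 3 of its 5 snoRNA genes are, all H/ACA guides of the SNORA71 family. SNORA71A had a difference of -0.75 (SE 0.15, limma adjusted p = 0.00169), SNORA71C -0.85 (SE 0.18, limma adjusted p = 0.00196) and SNORA71D -0.62 (SE 0.15, limma adjusted p = 0.0038). The SNORA71 genes are near-identical copies, so reads may be split between them in a way that is not stated. SNHG29 is not listed, and its 3 box C/D snoRNA genes are, SNORD49A at -0.87, SNORD49B at -0.80 and SNORD65 at -0.77, with limma adjusted p of 0.00114, 0.00111 and 0.00163. SNORD49A had log2 values of 8.31 and 8.29 in growth medium and 7.36, 7.63 and 7.31 in hypertrophic medium, without overlap. SNHG20 is not listed, and SCARNA16 inside it had a difference of -0.65 (limma adjusted p = 0.00442). ZFAS1, a host without an SNHG symbol, is not listed, and SNORD12C, 1 of its 3 snoRNA genes, had -0.56 (limma adjusted p = 0.00842).

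For these hosts no value is analysed here, so their snoRNAs cannot be set against them. Their differences, from -0.87 to -0.56, lie within the range of the 17 snoRNAs inside the listed SNHG genes.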
